A study of Mus musculus with 2 samples.

Results

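Open chromatin sites away from gene starts were compared between 2 DNase-seq libraries of mouse cerebellum, and the members described here are those whose signal differed most between the libraries. Peaks of the shorter of the authors' peak lists were matched 1 to 1 between the libraries by largest overlap, and those centred more than 1 kb from every annotated transcript start were kept as distal. For each the log2 ratio of the authors' signal, replicate 1 over replicate 2, was taken relative to the median ratio. A peak was a member where this centred ratio was 1 or more in either direction, a fold of 2 beyond the median. This gave 1614 members among 25213 shared distal peaks (6.4%), themselves part of 45933 shared peaks and of 61776 and 71141 peaks in all. Of the members, 545 were higher in replicate 1 (2.16%) and 1069 were higher in replicate 2 (4.24%). The members were chosen by the measured signal, so their ratios are a description, and with 1 library on each side no test of a difference between libraries exists.

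Both libraries were made from whole cerebellum of male B6CASTF1/J mice, the hybrid offspring of B6 and CAST parents, aged 8 to 10 months and untreated as far as the labels say. They form 1 group of 2 biological replicates, and each came from its own pool of 2 biosamples. The labels do not say whether the pools share animals, so the spread between the libraries may be biological or technical. In a bulk tissue, fewer cells of a type and less open chromatin per cell cannot be told apart. The tissue label was set beside its markers: 227 shared distal peaks lay nearest to 1 of 25 genes of granule cells, the most abundant neurons of the cerebellum, and 3 lay nearest to 1 of 20 Hox genes, which the cerebellar primordium does not express. Counts of this kind do not measure expression, and 20 housekeeping genes had only 19.

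DNase I cuts DNA where nucleosomes are displaced, and a bound factor leaves a short protected stretch, a footprint, inside the cut region. Distal sites of this kind are mostly enhancers and insulators. CTCF, a zinc finger protein present in nearly all cell types, binds a long motif with which it anchors chromatin loops, whereas nuclear factor I proteins and basic helix-loop-helix factors such as NEUROD1 and ATOH1 bind short motifs at enhancers of granule neurons and their precursors.

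The sequences of the members with the largest ratios show the kinds of site at either extreme. They are the stretches shared by the peaks of both libraries in the GRCm38 (mm10) reference, plus strand, 5′ to 3′, each named by the nearest coding gene. Capitals mark matches on either strand to the CTCF motif (CCA, AG and GGC, each 2 bases apart), CAGATG (the E-box of NEUROD factors) and TTGGCA (the single site of nuclear factor I, NFI). The hybrid's CAST allele can differ from these letters. The following were higher in replicate 1. Igdcc3, Kcnip2 and Kcnk18 have the largest ratios among members with at least the median mean signal, and the other 2 are the next with a CTCF match, chosen after their letters were seen.
Kcnk18, chr19:59239561-59239760: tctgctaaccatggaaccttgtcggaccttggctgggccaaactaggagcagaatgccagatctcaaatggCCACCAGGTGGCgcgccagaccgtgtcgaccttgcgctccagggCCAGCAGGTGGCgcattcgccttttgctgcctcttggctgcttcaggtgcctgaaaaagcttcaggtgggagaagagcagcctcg
Bcl2l14, chr6:134389581-134389760: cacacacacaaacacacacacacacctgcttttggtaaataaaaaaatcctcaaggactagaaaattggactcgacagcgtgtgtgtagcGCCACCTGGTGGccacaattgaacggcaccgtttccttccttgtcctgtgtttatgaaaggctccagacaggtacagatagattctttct
A430078G23Rik, chr8:3358161-3358360: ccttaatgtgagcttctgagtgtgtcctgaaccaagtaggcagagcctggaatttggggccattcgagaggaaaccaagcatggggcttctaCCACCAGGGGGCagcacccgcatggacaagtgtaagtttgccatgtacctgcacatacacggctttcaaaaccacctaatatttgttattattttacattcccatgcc
Igdcc3, chr9:65133861-65134020: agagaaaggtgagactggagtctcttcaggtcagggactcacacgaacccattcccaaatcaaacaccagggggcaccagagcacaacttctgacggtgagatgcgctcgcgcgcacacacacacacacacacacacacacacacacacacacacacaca
Kcnip2, chr19:45813361-45813560: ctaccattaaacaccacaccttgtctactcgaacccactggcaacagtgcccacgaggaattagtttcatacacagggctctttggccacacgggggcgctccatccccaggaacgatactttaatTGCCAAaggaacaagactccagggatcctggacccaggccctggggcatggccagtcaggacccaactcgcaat

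The following were higher in replicate 2. By the same limit on mean signal Gm10722, Pak3 and Adam34 have the largest ratios, and Pappa is shown for its NEUROD E-box, likewise chosen after its letters were seen.
Pappa, chr4:64632322-64632469: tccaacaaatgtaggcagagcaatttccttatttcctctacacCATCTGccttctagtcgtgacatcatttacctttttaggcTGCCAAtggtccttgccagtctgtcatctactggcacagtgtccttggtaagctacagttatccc
Adam34, chr8:44042681-44042780: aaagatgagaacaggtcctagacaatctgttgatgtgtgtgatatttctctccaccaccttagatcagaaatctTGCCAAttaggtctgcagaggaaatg
Pak3, chrX:143483001-143483120: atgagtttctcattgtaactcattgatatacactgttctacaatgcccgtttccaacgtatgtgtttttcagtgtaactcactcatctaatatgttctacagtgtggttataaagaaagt
Gm10722, chr9:3002041-3002220: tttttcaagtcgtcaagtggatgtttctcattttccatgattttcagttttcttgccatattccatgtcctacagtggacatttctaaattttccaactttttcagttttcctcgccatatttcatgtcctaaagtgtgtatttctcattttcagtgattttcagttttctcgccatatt

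Near Kcnk18, a potassium channel gene, the peak carried 2 CTCF matches, and its signal was 2.38 in replicate 1 and 0.727 in replicate 2, a centred log2 ratio of 1.42. The peak near Bcl2l14 had 1 CTCF match and a signal of 2.08 and 0.651. The peak in an intron of A430078G23Rik had 1 CTCF match, with 3.13 in replicate 1 against 0.992 in replicate 2. The site nearest to Igdcc3 had the largest ratio of those with at least the median mean signal, 1.56, with 2.38 and 0.664. It had no full match, but its letters match the CTCF motif less its first base 1 time. The peak in an intron of Kcnip2, a gene for a potassium channel regulator, had 3.88 and 1.13 and an NFI single site. Among the 12 members with the largest ratios in this direction and at least the median mean signal, 8 held a full CTCF match in the 200 bp around their centre.

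In the opposite direction the largest ratios were larger. The peak nearest to Pappa, 492 kb from its start, held 1 E-box and 1 NFI single site, with 0.778 in replicate 1 against 3.39 in replicate 2 and a centred log2 ratio of -2.41. The peak nearest to Adam34 had 0.5 against 2.98 and 1 NFI single site. None of the 12 members chosen in the same way in this direction held a CTCF match. The largest ratio of all, -3.22, stood in an intron of Gm10722, with 0.742 against 5.68, where 100% of the window is soft-masked as repeat in the reference. Reads from repeat copies cannot be assigned to 1 place with certainty, so this value is uncertain. The next of the 12, near Pak3 on chromosome X, had 2.26 against 16.3 with 34% of the window soft-masked. Its value is uncertain for the same reason, and it may not stand for a single place. Windows soft-masked over 50% or more of their length made up 2.75% and 1.68% of the members and 1.93% of all shared distal peaks.

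Members higher in replicate 1 were weaker than most shared distal peaks, with a median mean signal over both libraries of 1 against 1.33 for all, and those higher in replicate 2 were stronger, with 1.5. Those higher in replicate 1 had a median signal of 1.45 in replicate 1 and 0.537 in replicate 2. Those higher in replicate 2 had 0.942 and 2.02, whereas all shared distal peaks had 1.42 and 1.19. Replicate 1 thus had the higher signal at the typical distal peak, by a fold of 1.22, which the centring removes. The centred ratios ran from -3.22 to 1.78 with a standard deviation of 0.55 and quartiles of -0.353 and 0.364, a longer tail towards replicate 2. Signal moved in whole steps within each library, read as cuts: the median member higher in replicate 1 held 203 and 85 steps, and the median member higher in replicate 2 held 132 and 319. The counting error of a log2 ratio at those numbers was 0.187 and 0.15 (median SE), under the threshold of 1. Counting error is a lower limit, since amplified fragments are not independent molecules.

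**Figure D1:**
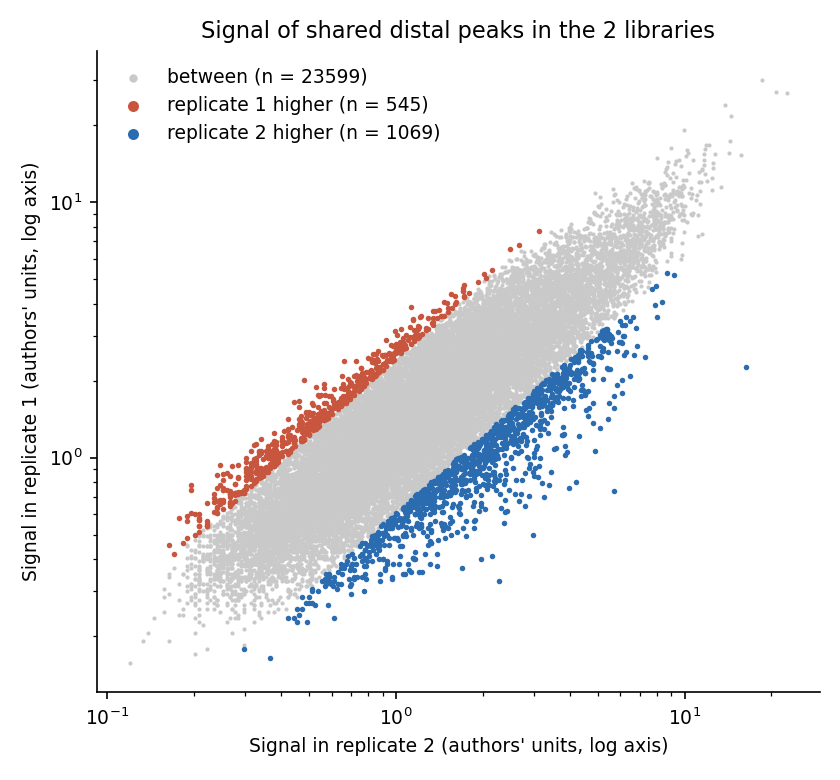
Signal of 25213 shared distal peaks in replicate 1 (vertical, log axis) against replicate 2 (horizontal, log axis), in the authors' units, 1 point per peak. Members higher in replicate 1 (red, 545) and higher in replicate 2 (blue, 1069) lie on either side of the remaining 23599 peaks (grey). The blue points reach farther from the grey band, to a signal of 2.26 against 16.3 at the partly soft-masked site near Pak3.

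Members of both kinds occurred over most of the range of signal. In 10 equal groups of peaks by mean signal the share higher in replicate 1 was 2.7% in the lowest group and 0.159% in the highest. The share higher in replicate 2 was 1.78% in the lowest group, 5.55% in the eighth and 2.74% in the highest. Within each of the 10 groups the standard deviation of the centred ratio, 0.465 to 0.588, was above the median counting error, which fell from 0.262 in the lowest group to 0.0771 in the highest. The strongest members higher in replicate 1 were nearest to Col16a1 (7.68 against 3.14), Cebpb (6.75 against 2.66) and Crtac1 (6.55 against 2.48). After the site near Pak3, the strongest members higher in replicate 2 were nearest to Adcy1, a neuronal adenylyl cyclase (5.15 against 9.22), and Pcdh9, a protocadherin (5.27 against 8.67).

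The threshold cuts a continuous spread. Just inside it lay peaks nearest to Igfbp7 (1.17 in replicate 1 against 0.48 in replicate 2) and Wnt11 (0.878 against 0.36), and just outside it peaks nearest to Grin2b (1.48 against 0.607) and Mib1 (0.492 against 0.202). On the side of replicate 2, peaks nearest to Prdm2 (2.11 against 3.47) and Pax6, a granule lineage homeobox gene (0.985 against 1.62), lay just inside, and peaks nearest to Sytl2 (0.685 against 1.13) and Slc9a9 (2.43 against 4) just outside. The split between the directions depends on the centring. Centred on the median of all shared peaks, promoters included, 228 members were higher in replicate 1 and 1655 in replicate 2. Centred within bins of GC content, the numbers were 756 and 781.

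Sequence motifs, which the rule did not use, separated the directions. A motif was counted where its letters occurred on either strand in the 200 bp around the centre of the shared stretch. The CTCF motif stood in 265 of the members higher in replicate 1, or 48.6% (95% Wilson interval 44.5 to 52.8), in 53 of those higher in replicate 2, or 4.96% (3.81 to 6.43), and in 17.5% of all shared distal peaks. Read the other way, 5.99% of the 4421 shared distal peaks with a CTCF match were members higher in replicate 1 and 1.2% were members higher in replicate 2, against 1.35% and 4.89% of peaks without one. Intervals cover counting error only, and neighbouring peaks are not independent.

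The motifs of neuronal enhancers stood on the other side. The NEUROD E-box was in 493 members higher in replicate 2, or 46.1% (43.1 to 49.1), in 106 higher in replicate 1, or 19.4% (16.3 to 23), and in 29.6% of all shared distal peaks. The NFI single site was in 414 members higher in replicate 2, or 38.7% (35.9 to 41.7), in 63 higher in replicate 1, or 11.6% (9.14 to 14.5), and in 24.1% of all. The full dimer site of nuclear factor I, TTGGC and GCCAA 5 bases apart, was in 36 shared distal peaks and in 0 members. Both the E-box and the single site stood together in 16.3% of members higher in replicate 2, 1.28% of those higher in replicate 1 and 7.82% of all. Peaks with either of these but no CTCF match made up 66.6% and 16.1% of the members in that order, against 40.3% of all. None of the 3 motifs was found in 28.4% of members higher in replicate 2 and 35.2% of those higher in replicate 1, which says only that these letters are not in the window.

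More copies of the E-box went with lower ratios. Among all shared distal peaks the median centred log2 ratio was 0.077 without a copy, -0.162 with 1, -0.254 with 2 and -0.275 with 3 or more. A pair of copies occurred in 9.35% of members higher in replicate 2, 1.28% of those higher in replicate 1 and 4.2% of all.

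The change in motif content was not particular to the extremes. In 8 bins of the centred ratio, from the lowest (-1.5 or less) to the highest, the share with a CTCF match was 4.5, 5.08, 6.06, 8.26, 20, 40.9, 49.4 and 45.4%. The share with the E-box was 50.5, 45, 41.8, 35.1, 22.9, 18.2, 19 and 21.3%, and the share with the single site 37.4, 39.1, 35.9, 29.6, 19, 10.9, 11.4 and 12%. For CTCF most of the difference lay between the bin from -0.5 to 0 and that from 0.5 to 1, which hold no members.

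**Figure D2:**
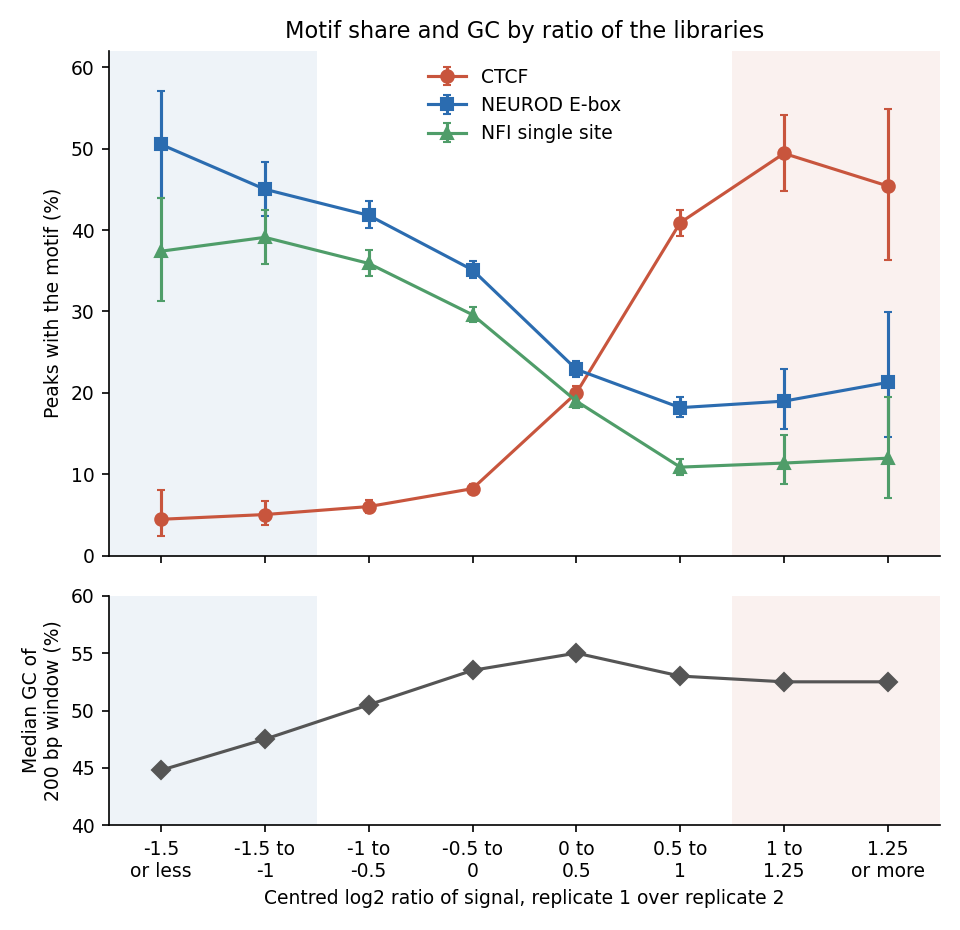
Upper panel, share of shared distal peaks with each motif (%) in 8 bins of the centred log2 ratio of signal, with 95% Wilson intervals as bars. Lower panel, median GC content (%) of the 200 bp window in the same bins. Shaded bins hold the members higher in replicate 2 (blue) and in replicate 1 (red). CTCF goes from 4.5% in the leftmost bin to 45.4% in the rightmost, the E-box from 50.5% to 21.3%.

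Of the 33 motifs searched, others also differed by 1.5 times or more between the directions, most of them towards replicate 2. Those described next have at least 20 members in 1 direction, so motifs with fewer are left out. Of these, HSF had 5 members higher in replicate 2 and 0 higher in replicate 1. The USF E-box CACGTG went the other way, with 10 (0.935%) and 14 (2.57%), against 3.77% of all. Among the motifs described, the largest ratio of shares, 14.3, was that of TTATGTAA and rests on 1 member higher in replicate 1. TTATGTAA is the site of the PAR bZIP factors DBP, HLF and TEF, which are outputs of the circadian clock. It was in 28 members higher in replicate 2 (2.62%), 1 higher in replicate 1 (0.183%) and 0.861% of all. The ROR and REV-ERB site TAGGTCA, also read by clock nuclear receptors, stood in 4.21% and 0.734%, against 2.12% of all. The MEF2 site, CTA and TAG 4 bases apart, bound by factors of neuronal and muscle genes, stood in 4.96% and 1.1% (2.79% of all), and the AP-1 site TGAGTCA of FOS and JUN in 9.45% and 2.75% (5.57%). The homeobox site TAATTA was in 6.36% and 2.57% (2.86%), the MEIS site TGACAG in 22.4% and 11.9% (18.4%), the forkhead site TGTTTAC in 3.55% and 1.47% (2.13%), the SOX site ACAATG in 10.6% and 6.61% (8.33%), and the steroid receptor site ACANNNTGT in 9.26% and 5.32% (6.61%).

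Some letters overlap with those of another motif. The NFY site CCAAT can share bases with the NFI single site. It was in 32.5% of members higher in replicate 2 and 21.5% of those higher in replicate 1 (23.6% of all), and among members without the single site in 29.8% and 18.5%. The RFX site GTTGCCA was in 6.27% and 3.67% (4.48% of all). Without peaks that hold the single site, its shares were 3.97% and 2.7%, with overlapping intervals.

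Towards replicate 1 the other motifs with at least 20 members were SP/KLF, GGGCGGG, in 3.85% against 0.935% of members higher in replicate 2, and the ZEB E-box CAGGTG in 29.9% against 17.4% (24.9% of all). Both shares of SP/KLF were under the 4.53% of all shared distal peaks, and in 2 bands of GC the order was the other way, with 0.781% against 0.935% from 45 to 50% GC and 1.8% against 2.16% from 50 to 55%. CAGGTG can lie inside a CTCF match, and among members without one its shares were 26.4% and 17.8%. The ZIC site CAGCAGG, bound by zinc finger factors of granule cells, was in 21.8% and 15.8% (18.4% of all). It too can lie inside a CTCF match, and among members without one the shares were 17.5% and 15.7%, with overlapping intervals.

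**Figure D3:**
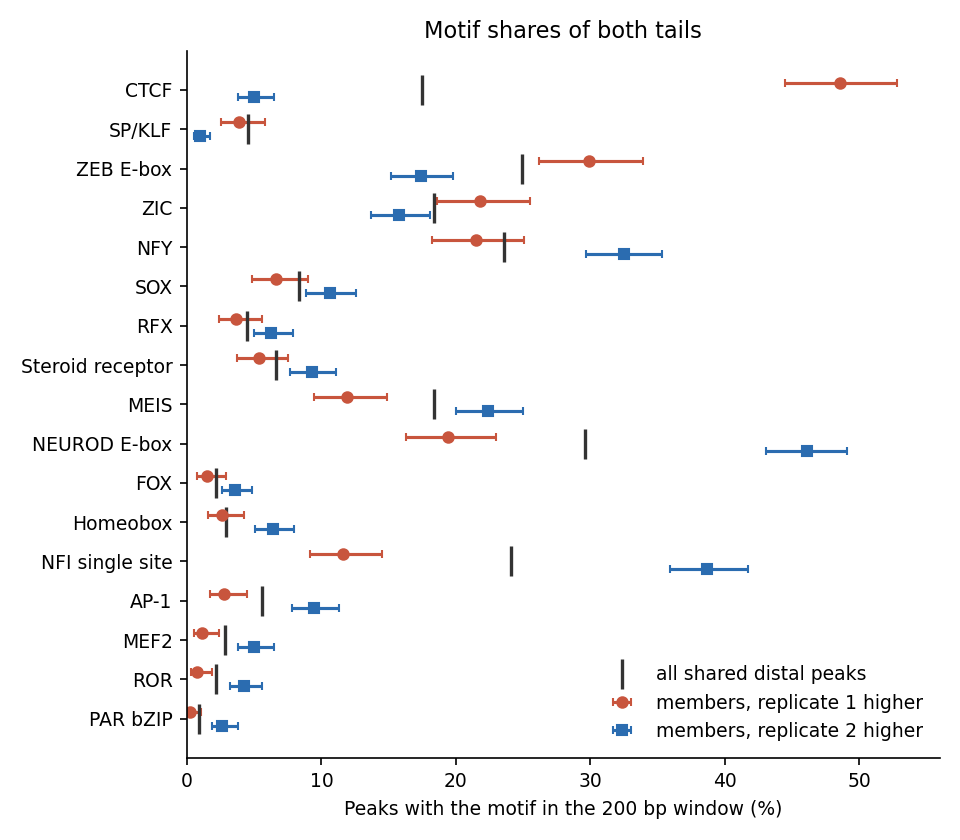
Share of members (%) with each of 17 motifs in the 200 bp window, for members higher in replicate 1 (red circles) and in replicate 2 (blue squares), with 95% Wilson intervals as bars, and black ticks for all shared distal peaks. CTCF, at 48.6% against 4.96%, stands on the side of replicate 1, the E-box and NFI single site on that of replicate 2.

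Base composition moved with the direction. Median GC content of the window was 47% in members higher in replicate 2, 52.5% in those higher in replicate 1 and 53% in all. CpG dinucleotides numbered 1, 2 and 1.5 per 100 bp in the same order (medians). Members higher in replicate 2 made up 15.6% of shared distal peaks under 45% GC, 10.2% from 45 to 50%, 2.74% from 50 to 55%, 0.183% from 55 to 60% and 0% above. The share higher in replicate 1 stayed between 1.89% and 2.57% in the same bands. Across the 25213 peaks, which share both libraries, Pearson's r of GC and ratio was 0.23 and Spearman's rho 0.204, and at the 20720 shared promoter peaks they were 0.488 and 0.476. Centred within bins of GC content, 756 members were higher in replicate 1 and 781 in replicate 2, against 545 and 1069. Beyond this recount, the part of GC content in the counts of members was not tested.

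The shares of CTCF, the E-box and the NFI single site differed within bands of GC as well, whereas those of some other motifs did not. Under 45% GC, CTCF stood in 62.5% of members higher in replicate 1 and 7.56% of those higher in replicate 2. From 45 to 50% the shares were 46.1% and 4.49%, from 50 to 55% they were 55.1% and 2.6%, and from 55 to 60% they were 46.9% and 8.33%, the last over 12 members. The E-box went the other way in the same 4 bands, with 12.5, 22.7, 22.8 and 15.4% of members higher in replicate 1 and 49.8, 44.5, 45.9 and 33.3% of those higher in replicate 2. The NFI single site did so too, with 8.33, 12.5, 9.58 and 15.4% against 37.5, 40.7, 34.6 and 58.3%. For SOX the shares at members higher in replicate 1 and in replicate 2 were 10.2% and 10.8% from 45 to 50% GC and 8.98% and 6.49% from 50 to 55%. For the homeobox site they were 2.4% and 2.6% from 50 to 55%, and for the forkhead site 6.25% and 3.09% under 45%. The ZIC site stood in 13.3% and 16.6% from 45 to 50%, against the order over all members.

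Peaks that the rule did not use gave the same order with smaller differences. Distal peaks called in 1 library alone numbered 9715 in replicate 1 and 18422 in replicate 2. CTCF was in 9.68% and 7.6% of them, the E-box in 19% and 27.7%, and the NFI single site in 14.6% and 25.8%. Among all shared distal peaks the shares were 17.5%, 29.6% and 24.1%. Thus CTCF and the E-box were less common in both sets than in shared distal peaks. A call in 1 library alone is itself a difference in signal, so these sets are not separate evidence. Their median GC was 54% and 49%. At shared promoter peaks, centred on their own median, the median ratio was 0.126 with a CTCF match and -0.00463 without, -0.132 with the E-box and 0.0114 without, and -0.127 with the single site and 0.0117 without. Promoter peaks past the threshold numbered 19 towards replicate 1 (0.0917%) and 271 towards replicate 2 (1.31%). Of these 6 (31.6%) and 8 (2.95%) held a CTCF match, against 4.56% of all shared promoter peaks.

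Width differed between the directions, and since width, footprints and false discovery rate (FDR) come from the same cuts as the signal, these are descriptions too. Members higher in replicate 2 had a median width of 180 bp in replicate 1 and 240 bp in replicate 2, and 74.9% were wider in replicate 2. A median of 180 bp in both libraries was found for members higher in replicate 1, with 38% wider in replicate 2 and 49% wider in replicate 1. All shared distal peaks had 200 and 220 bp, with 62.2% wider in replicate 2. The shared stretch covered a median of 80% of the joint span of members higher in replicate 1, 64.4% of those higher in replicate 2 and 77.8% of all. In the library with less signal the window still lay mostly under an FDR of 0.001, over a median of 93% of its bases for members higher in replicate 1 and 96% for those higher in replicate 2.

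Footprints followed the library with more signal. At members higher in replicate 1, 545 of 545 had a footprint of replicate 1 in the window and 500 had one of replicate 2 (91.7%), or 3.32 and 2.36 footprints per peak. At members higher in replicate 2, 96.8% had a footprint of replicate 1 and 99% one of replicate 2, or 2.92 and 3.47 per peak. For all shared distal peaks the values were 96.7% and 95.1%, or 3.1 and 3 per peak. Of the footprints of replicate 1 at members higher in replicate 1, 50.7% met a footprint of replicate 2, and 80% the other way around. At members higher in replicate 2, 65.7% of the footprints of replicate 1 and 51.7% of those of replicate 2 were met. Over all shared distal peaks 64.3% and 67.4% were met. In all shared distal peaks the share with a footprint was higher where a peak held more steps. With 100 to 200 steps, members higher in replicate 1 had 2.96 footprints per peak in replicate 1 and 2.82 in replicate 2, and those higher in replicate 2 had 3.04 and 3.01. Under 100 steps, members higher in replicate 1 had 2.68 per peak in replicate 1 (44 peaks) and 1.95 in replicate 2 (316 peaks). Members higher in replicate 2 had 2.22 (334 peaks) and 2.71 (34 peaks). Steps were not matched within a band, so these values do not compare equal depth. From 200 to 400 steps the values were 3.6 and 3.35, and 3.47 and 3.4. The part of depth in these differences was not tested further.

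CTCF matches mostly lay under a footprint in both libraries. Over all members, with or without CTCF, footprints of replicate 1 had a median length of 13 bp where replicate 1 was higher and 10 bp where replicate 2 was higher, whereas footprints of replicate 2 had a median of 11 bp in both. Among all shared distal peaks with a CTCF match, 93.9% had a footprint of replicate 1 on it and 89.2% one of replicate 2. A footprint of replicate 1 lay on the CTCF match in 265 of 265 members higher in replicate 1. One of replicate 2 did so in 219 (82.6%, 77.6 to 86.7), under the share of all. At the 53 CTCF matches of members higher in replicate 2, 40 had a footprint of replicate 1 (75.5%) and 49 of replicate 2 (92.5%).

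Footprints on the short motifs were fewer. In members higher in replicate 2 the E-box lay under a footprint in 53.5% of cases in replicate 1 and 70.4% in replicate 2, and the NFI single site in 59.9% and 78%. In members higher in replicate 1 the E-box did so in 46.2% and 29.2% and the single site in 49.2% and 27%. Among all shared distal peaks with these motifs the values were 48.7% and 50.2% for the E-box and 58.2% and 63.1% for the single site.

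**Figure D4:**
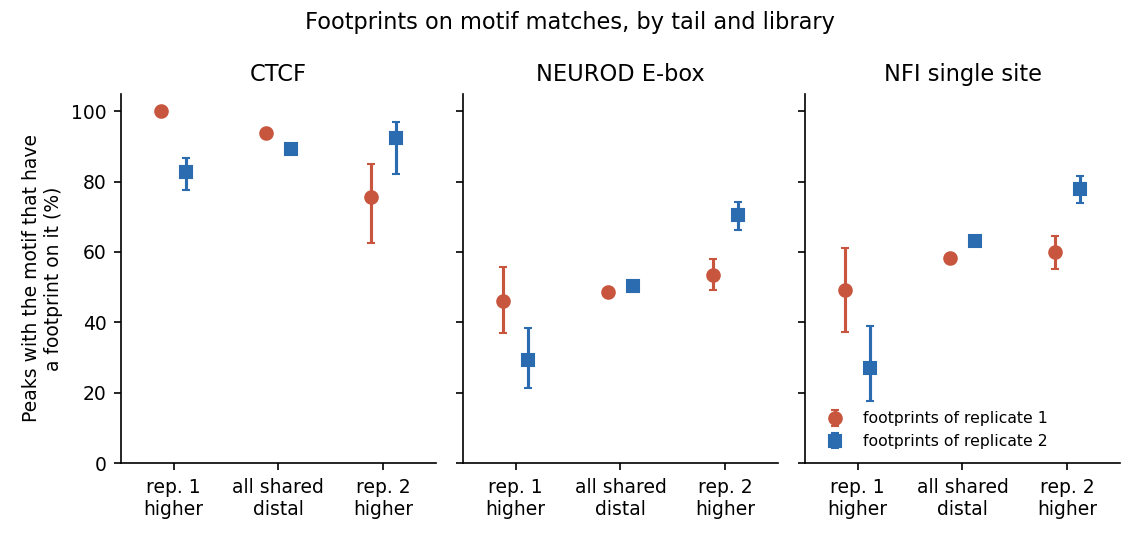
Share of peaks with a motif that have a footprint on the match (%), for CTCF, the NEUROD E-box and the NFI single site, with footprints of replicate 1 (red circles) and replicate 2 (blue squares) and 95% Wilson intervals as bars. Groups are members higher in replicate 1, all shared distal peaks and members higher in replicate 2. On CTCF, members higher in replicate 1 stand at 100% and 82.6%. On the E-box, members higher in replicate 2 stand at 53.5% and 70.4%.

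The directions also differed in place. Of members higher in replicate 1, 64% lay between genes (59.9 to 68), against 49.6% (46.6 to 52.6) of those higher in replicate 2 and 45.9% of all. Introns held 30.8%, 47.7% and 46.4%, and exons 5.14%, 2.71% and 7.68%. Members higher in replicate 2 were far from coding starts, at a median of 57.6 kb, against 20.4 kb for those higher in replicate 1 and 19.2 kb for all. Coding genes that contain a member higher in replicate 2 had a median length of 279 kb, against 74.7 kb for replicate 1 and 113 kb for all. Within a motif class the order of the medians was the same. For members with a CTCF match the median was 139 kb where replicate 2 was higher and 74.9 kb where replicate 1 was higher. For members with an E-box or single site and no CTCF match it was 296 kb and 104 kb. These classes held 53, 265, 712 and 88 members in that order, of which 47.2, 62.3, 50.7 and 69.3% lay between genes. The medians rest on the rest alone and were given no interval. By chromosome the share higher in replicate 2 ran from 2.44% on chromosome 11 to 8.27% on chromosome X (41 of 496), and the share higher in replicate 1 from 1.58% on chromosome 7 to 3.45% on chromosome 17. Chromosome Y held 14 shared distal peaks and 0 members.

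The nearest neighbour of a member was more often of the same direction than at shared distal peaks as a whole, though not for most members. Members were not closer to their neighbours. The nearest other shared distal peak lay at a median of 18.7 kb from members higher in replicate 2. For those higher in replicate 1 the median was 30.7 kb, against 13.3 kb for all. The nearest other shared distal peak was itself higher in replicate 2 for 157 of the members higher in replicate 2 (14.7%, 12.7 to 16.9), against 4.34% of all shared distal peaks. For members higher in replicate 1 the nearest peak was of the same direction in 29 (5.32%, 3.73 to 7.54), against 1.87% of all. With neighbours within 1 kb left out the shares were 12.8% and 5.49%, against 4.54% and 2.19% of all. At any distance, a neighbour of the opposite direction was found for 5 members higher in replicate 2 (0.468%), against 1.87% of all. For members higher in replicate 1 it was found for 9 (1.65%), against 4.34% of all. The shared promoter peak of the nearest gene had a median centred ratio of -0.0748 for 859 members higher in replicate 2 and 0.0466 for 309 higher in replicate 1, small beside the ratios of the members.

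Members were spread over many genes. Those higher in replicate 1 were nearest to 525 coding genes, of which 19 had more than 1, and those higher in replicate 2 to 799, of which 171 had more than 1. Both directions occurred at 35 genes. Nrxn3, a neurexin of presynaptic adhesion spanning chr12:88722876-90334935 (mm10, plus strand), had the most, 7 of its 20 shared distal peaks. All 7 lay inside the gene, with a signal of 0.528 to 2.21 in replicate 1 and 1.71 to 4.3 in replicate 2, and 4 held the E-box. Cdh18, a neuronal cadherin, had 6 of 11, with 0.5 to 2.49 against 1.55 to 6.06 and the E-box in 5. Fgf14, a regulator of sodium channels that is mutated in an ataxia, had 5 of 12, with 0.914 to 1.56 against 1.69 to 4.65.

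Other genes with several members higher in replicate 2 were Negr1, an adhesion protein of neurons (5 of 10), Car10, a secreted ligand of neurexins (5 of 16), and Sphkap, an anchor of protein kinase A (5 of 9). Slc13a1, a sulfate transporter, had 6 of 11. The 6 of 11 nearest to Eno1b lay 289 to 767 kb from its start, so the name is only that of the closest coding gene. Across the 8 genes, chosen for having most members, 27 of 45 members held the E-box and 1 held a CTCF match. Of all members higher in replicate 2, 46.1% and 4.96% did so, and of all shared distal peaks 29.6% and 17.5%. Towards replicate 1 the counts were lower. Csf3r, the receptor of a granulocyte growth factor, had 3 of 4, with 0.728 to 1.73 in replicate 1 and 0.291 to 0.689 in replicate 2, all outside the gene and 2 of them with a CTCF match. Prickle2, a planar polarity gene, had 2 of 6, both with a CTCF match. Igsf11, Sulf2, Stx2, Dmrta2, Cxadr and Got2 had 2 each.

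Lists of marker genes held few members. Near granule cell genes, 12 of 227 shared distal peaks were higher in replicate 2, or 5.29% (3.05 to 9.01) against 4.24% of all, and 0 were higher in replicate 1 (interval 0 to 1.66%), against 2.16% of all. These included 4 of 16 at Etv1, an ETS factor of maturing granule cells, and 2 of 10 at Reln, the secreted protein reelin. Counted within 50 kb of the genes, 5 of 191 were higher in replicate 2, so the share depends on how peaks are assigned. At immediate early genes, which neuronal activity induces rapidly, 0 of 70 were higher in replicate 1 and 0 in replicate 2 (interval 0 to 5.2% for each). At clock genes 2 of 79 were higher in each replicate.

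Markers of other cell types had members in either direction, to be read against 2.16% and 4.24% of all shared distal peaks. Members higher in replicate 1 and in replicate 2 numbered 2 and 0 of 34 at oligodendrocyte genes, 2 and 0 of 32 at vascular genes, 2 and 1 of 27 at microglia genes and 3 and 3 of 31 at choroid plexus and meninges genes. They numbered 0 and 3 of 68 at genes of Bergmann glia and astrocytes, 0 and 2 of 62 at Purkinje cell genes, and 2 and 1 of 43 at genes of interneurons and unipolar brush cells. At genes of forebrain and midbrain neurons they numbered 1 and 0 of 29, at glucocorticoid and heat shock genes 0 and 1 of 39, at Hox genes 0 of 3 and at housekeeping genes 0 of 19. Counted within 50 kb of the genes, those higher in replicate 1 numbered 4 of 19 at vascular genes, 4 of 47 at oligodendrocyte genes, 3 of 35 at genes of interneurons and unipolar brush cells, 2 of 36 at microglia genes and 1 of 30 at choroid plexus and meninges genes. Those higher in replicate 2 numbered 0, 0, 1, 0 and 1 in the same order. Within 50 kb of Purkinje cell genes, 1 of 44 was higher in each replicate. At genes of Bergmann glia and astrocytes the counts were 0 and 1 of 43, and at forebrain and midbrain neuron genes 1 and 0 of 19. At glucocorticoid and heat shock genes they were 2 and 0 of 70, the other way from the nearest gene count. Hox genes had 0 of 4 and housekeeping genes 0 of 43. With so few peaks per list, intervals were wide, 1.73 to 20.1% for the 2 of 32 at vascular genes. Whether the pools differ in their mix of cells was not tested.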

How the data were processed

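DNase-seq peaks of 2 cerebellum libraries were used, with labels giving the replicate numbers and the mm10 build. Per the deposited file text each list comes from 1 library. The aligner, peak caller and footprint caller, not given in the sources used here, remain unnamed. Each peak carries the authors' signal, a coverage measure whose scale is not given. All values under 100 steps lay within 0.05 of whole multiples of 0.00714 (replicate 1) or 0.00632 (replicate 2), with medians of 196 and 152 steps per peak. The authors' deposited table of false discovery rates (q-values of the cut rate) lists intervals under 0.05. The deposited footprint score is 0.01 throughout.

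Positions were compared with GENCODE mouse release 21 and the GRCm38 reference in Python 3.11.15 with pandas 2.3.3, numpy 2.4.6 and matplotlib 3.10.9. Scripts were tested on simulated data. Features lie in 200 bp around the middle of the shared stretch, footprints count with an overlap of 1 bp or more, and intervals are 95% Wilson. Each peak was assigned to the gene with the nearest coding start. Named were, per direction, the 12 largest ratios at or above the median mean signal, the 3 strongest members, 2 peaks on either side of the threshold, 8 genes with most members, 2 genes with members per list, and motifs differing 1.5 times with at least 20 members, beside CTCF, NFI, E-box and ZIC. Members, motifs and lists were chosen with earlier results of these data known. Alternatives covered centring, threshold, signal filter, peak list, overlap, window and repeats. A site among those with the largest ratios is not reported here.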

Additional observations from a re-analysis of the deposited data

How the results depend on the processing

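Of 288 values recomputed under the alternatives, 217 kept within their limits and 71 moved. The order of the directions was the same in 15 of 15 settings for CTCF, 14 of 14 for the E-box and 14 of 14 for the NFI single site, with ratios of shares of 6.13 to 20.6, 1.78 to 5.56 and 2.32 to 4.15. Counts of members depended on the settings. Towards replicate 1 and replicate 2 they were 183 and 608 with only peaks at or over the median mean signal, 228 and 1655 centred on all shared peaks, 961 and 2030 in the longer peak list, 11 and 222 at a threshold of 1.5, and 756 and 781 centred within bins of GC. The share with CTCF among members higher in replicate 1 was 54.5% at the threshold of 1.5, which leaves 11 members. Among those higher in replicate 2 it was 2.47% over the median mean signal and 7.44% in the longer list. With the CTCF motif less its first base, an alternative added after the data were seen, the shares were 58.3% and 9.07%. The E-box stood in 9.09% of members higher in replicate 1 and 50.5% of those higher in replicate 2 at the threshold of 1.5, in 12.8% and 33.6% with a 100 bp window, and in 32.3% and 57.6% with a 400 bp window. In members higher in replicate 2 it stood in 49.8% over the median mean signal and 40.8% in the longer list. The NFI single site stood in 9.09% of members higher in replicate 1 at the threshold of 1.5, in 6.24% and 25.9% with a 100 bp window, in 20.7% and 48.1% with a 400 bp window, and in 35.2% of members higher in replicate 2 in the longer list. Leaving out windows that are mostly soft-masked, added after the data were seen, gave 530 and 1051 members. The cause of these shifts was not tested, other than that wider windows hold more letters and stricter settings fewer members. A ratio needs both libraries, so neither could be left out. No paired analysis was possible because the 2 libraries form 1 group and the results come from no test.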
